A study of Homo sapiens with 12 samples.

Results

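The genes described here carry the signal of a death receptor from the cell surface to caspase-8. They are the receptors FAS, TNFRSF10A and TNFRSF10B, the adaptors FADD and TRADD, the kinase RIPK1, caspase-8 (CASP8), its inhibitor CFLAR, and the inhibitors of apoptosis XIAP and BIRC2. Every array probe that the annotation of the platform assigned to 1 of these 10 symbols and to no other gene was taken, whatever its signal. This gave 41 of the 54613 probe sets tested on the Affymetrix arrays (AFFX), for 9 of the genes, and 13 of the 33096 probes tested on the Applied Biosystems arrays (ABI), for 8 genes, all of which were also on AFFX. TNFRSF10B had no ABI probe under this rule. RIPK1 was not assigned a probe on either platform by the tables used here and was not analysed.

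The cells were A2780, an established human ovarian carcinoma line. Control cells were untreated, and treated cells received a cell cycle inhibitor, which the labels do not name, at 3 µM for 6 hours. For each condition the RNA of 3 biological replicates was combined into 1 pool, and this pool was split into the aliquots that were put on 3 AFFX and 3 ABI arrays, 12 arrays in all. Errors and p-values below therefore measure the spread between aliquots and arrays and not that between cultures. RNA was taken from attached cells alone, so any cells that had detached during the treatment are not in these values. In bulk RNA, fewer cells that express a gene and less RNA of it per cell cannot be told apart.

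When a ligand binds FAS or the TRAIL receptors TNFRSF10A and TNFRSF10B, the receptor tails recruit the adaptor FADD, and FADD in turn recruits the precursor of caspase-8. Neighbouring caspase-8 molecules then activate each other and start apoptosis, unless CFLAR, a caspase-8 relative without protease activity, takes their place in the complex. TNF receptor 1 works through TRADD and RIPK1 and can either raise survival genes or lead to the same caspase, while XIAP and BIRC2 restrain the pathway further downstream and at the receptor.

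FADD had the largest fall of the member genes on both platforms, at 7.53-fold lower in treated cells on AFFX and 34.2-fold lower on ABI. Its treated mean on each platform was under the 90th percentile of probes of leukocyte genes, which these cells should lack, so the sizes are uncertain, and from the control mean to that percentile the fold was 4.48 on AFFX and 32.8 on ABI. At least 1 probe each of FAS, CASP8, CFLAR and XIAP also fell on each platform, by 1.60-fold to 2.74-fold. No probe of any member was called higher. A call, here and throughout, meant a limma adjusted p below 0.05 together with a difference of 1.5-fold or more. By this rule 8 of the 41 AFFX probe sets (19.5%) were lower, in 5 genes, where 8.95% of all AFFX probe sets were lower, and 0 were higher against 1.75% of all. On ABI 5 of the 13 probes (38.5%) were lower, in 5 genes, where 10.1% of all ABI probes were lower, and 0 were higher against 7.71% of all. The median log2(Fold Change) of the member probes was -0.15 on AFFX and -1.00 on ABI, beside 0.12 and 0.16 over all probes. Probes of 1 gene read the same RNA and are not independent of each other, and 4 of the 8 AFFX calls were FAS.

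The precision differed between platforms. The median SD of a probe over 3 arrays was 0.0976 in control and 0.113 in treated arrays on AFFX, and 0.261 and 0.298 on ABI (log2 units). As a measure of the signal of genes that these cells should lack, probes of leukocyte marker genes were used, and a probe is called dim here when both its control and its treated mean lay under the 90th percentile of their levels, 6.42 on AFFX and 0.03 on ABI (log2). Of the members, 19 AFFX probe sets and 2 ABI probes were dim. The leukocyte probes themselves had a median change of 0.20 on AFFX and 0.28 on ABI, with 0 lower and 1 higher on each platform. The mean level of that list was 4.62 to 4.69 in control and 4.82 to 4.93 in treated arrays on AFFX, and -1.45 to -0.96 and -1.12 to -0.91 on ABI, and 17 and 18 of the 22 leukocyte genes measured on AFFX and ABI were dim in every probe. Of the carcinoma markers, PAX8 and KRT7 were above the dim limit on AFFX and KRT7, KRT8, KRT18, CLDN4, MUC16 and WT1 on ABI, whereas the epithelial markers EPCAM and CDH1 were dim on both. Of 16 fibroblast and endothelial markers, 8 were above the limit on each platform, COL1A2, COL3A1, DCN, PDGFRB and THY1 on both, and the mean level of these markers was 6.08 to 6.13 in control and 6.19 to 6.23 in treated arrays on AFFX, and 0.35 to 0.53 and 0.37 to 0.81 on ABI. Single probes moved: on AFFX 1 probe set each of COL1A2 (-1.74) and COL3A1 (-1.79) was lower and 1 probe set of this list was higher, while on ABI 1 was lower and 1 higher, and of the carcinoma probes 0 were called on AFFX and 1 was lower and 3 higher on ABI. The part of these markers in the results was not tested. Ribosomal protein genes had a median change of 0.17 on AFFX and 0.53 on ABI, and centring the arrays on these genes moves every change below by -0.27 on AFFX and -0.59 on ABI.

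**Figure D1:**
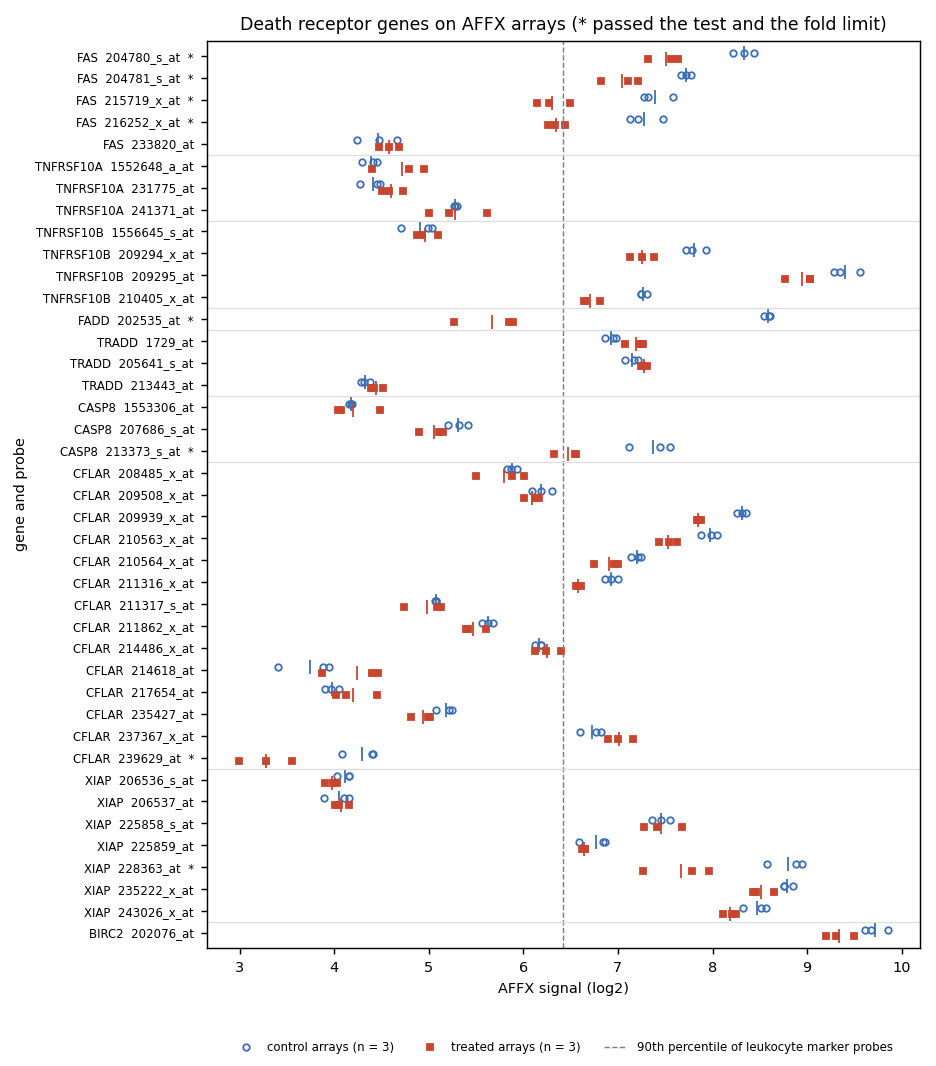
Signal of each of the 41 member probe sets on the 6 AFFX arrays (log2 scale), with control arrays as open circles, treated arrays as filled squares and group means as vertical ticks. The dashed line is the 90th percentile of the leukocyte marker probes (6.42), and a star marks the 8 probe sets called lower, among which FADD has the widest gap between its groups.

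FAS is the receptor of FAS ligand, and its tail holds the death domain to which FADD binds. It had 5 AFFX probe sets. On 204780_s_at the 3 control arrays read 8.44, 8.34 and 8.22 and the 3 treated arrays 7.56, 7.64 and 7.32 (log2), a change of -0.82 (SE 0.104, limma adjusted p = 1.25e-04). The groups did not overlap, and the lowest control array stood above the highest treated array. On 215719_x_at the levels were 7.58, 7.31 and 7.28 in control and 6.27, 6.49 and 6.15 in treated arrays, which is 2.12-fold lower (adjusted p = 2.82e-05 in limma). Probe set 216252_x_at gave 1.90-fold (adjusted p = 5.54e-05, limma) and 204781_s_at 1.60-fold (adjusted p = 5.55e-04, limma), so that 4 of the 5 FAS probe sets fell by between 1.60-fold and 2.12-fold. The treated means of 215719_x_at and 216252_x_at, 6.30 and 6.35, were under the dim limit, and their folds from the control mean to that limit were 1.96 and 1.81. The call of 204781_s_at lay close to the fold limit and was lost without treated replicate 3, where its change was -0.57. The last probe set, 233820_at, was dim, with a change of 0.12 (adjusted p = 0.412 in limma) and overlapping groups.

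The single ABI probe for FAS read 18.66, 17.20 and 19.45 in control and 8.93, 8.98 and 9.74 in treated arrays (linear signal). Again all treated arrays lay below all control arrays, at 2.00-fold lower (log2 change -1.00, SE 0.122, limma adjusted p = 0.00527). The FAS change did not differ detectably between the platforms, with a difference of -0.09 (SE 0.164, adjusted p of the interaction 0.783).

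TNFRSF10A and TNFRSF10B are the receptors of TRAIL that signal through FADD. TNFRSF10A was dim on all of its 3 AFFX probe sets, with changes of 0.33, 0.20 and 0.00 and adjusted p of 0.0642, 0.125 and 0.999 in limma. Its ABI probe read 1.49, 1.84 and 3.79 in control and 0.33, 0.99 and 2.33 in treated arrays (linear signal). These groups overlapped and each spread several-fold, so the log2 change of -1.26 had an SE of 0.774 (limma adjusted p = 0.314), and no change of TNFRSF10A was detectable at this signal.

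TNFRSF10B was measured well above the dim limit on 3 of its 4 AFFX probe sets. The levels on 209295_at were 9.56, 9.35 and 9.29 in control and 9.03, 9.03 and 8.76 in treated arrays (log2), without overlap. The 3 probe sets had changes of -0.55, -0.46 and -0.56 with limma adjusted p of 0.00124, 0.00662 and 4.48e-04. All 3 thus passed the test on p but stayed under the 1.5-fold limit, the nearest at 1.47-fold. The dim probe set 1556645_s_at had a change of 0.05.

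FADD couples all of these receptors to caspase-8 and is represented by 1 probe on each platform. AFFX probe set 202535_at read 8.61, 8.59 and 8.55 in the control arrays and 5.89, 5.26 and 5.85 in the treated arrays (log2). Control arrays lay within a narrow band, and every treated array lay far below it. The mean went from 8.58 ± 0.0320 to 5.67 ± 0.352 (SD, n = 3 arrays), a log2 change of -2.91 (SE 0.146, limma adjusted p = 9.97e-08). The treated mean lay below the dim limit of 6.42 but above 4.84, the median level of the leukocyte probes, and so within the upper range of genes these cells should lack.

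The ABI probe gave linear signals of 36.94, 33.58 and 30.22 in control arrays and 0.61, 1.94 and 0.79 in treated arrays. Here too the groups lay far apart, and treated replicate 2 was the highest of the treated arrays. The log2 mean went from 5.06 ± 0.145 to -0.03 ± 0.876 (SD, n = 3), a change of -5.10 (SE 0.444, limma adjusted p = 0.00178). Because the treated mean was under the dim limit of 0.03, the size of the ABI fold rests on signals near background, and with 0.5 added to each signal the log2 change was -4.48. FADD kept its call under each of the 14 alternatives run on AFFX and the 15 run on ABI.

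**Figure D2:**
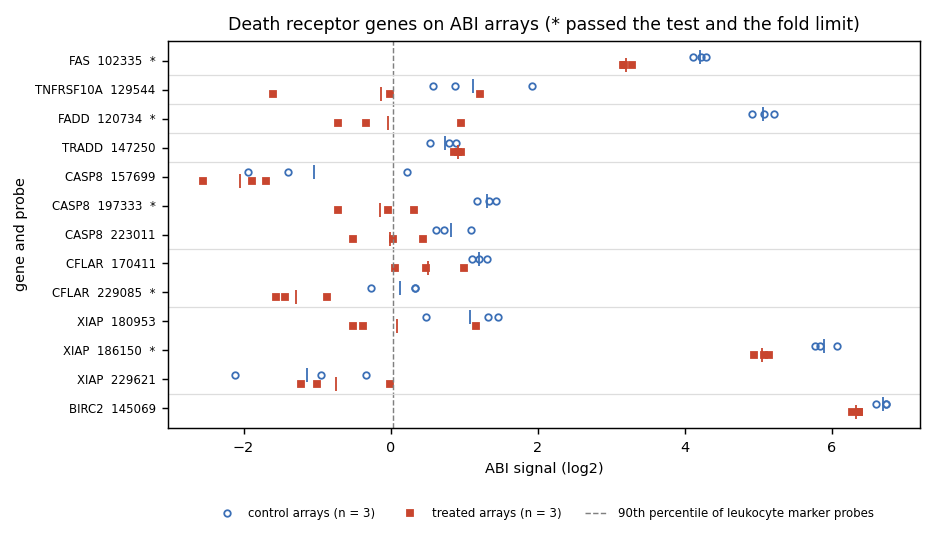
Signal of each of the 13 member probes on the 6 ABI arrays (log2 of the deposited signal), with control arrays as open circles, treated arrays as filled squares and group means as vertical ticks. The dashed line is the 90th percentile of the leukocyte marker probes (0.03), and a star marks the 5 probes called lower. FADD went from 5.06 to -0.03, while BIRC2 and TRADD shifted little.

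The 250 bases upstream of the gene start are shown for FADD, which had the largest fall, for CASP8, whose protein FADD recruits, and for BIRC2, a member that was not called. They are RefSeq sequences of the plus strand of GRCh38.p14, where all 3 genes lie on that strand. FADD spans chr11:70203046-70203295, CASP8 chr2:201233213-201233462 and BIRC2 chr11:102346964-102347213 in this window. Capitals mark GGGCGG on either strand, the core letters of a GC box, the element known for binding Sp1.
FADD: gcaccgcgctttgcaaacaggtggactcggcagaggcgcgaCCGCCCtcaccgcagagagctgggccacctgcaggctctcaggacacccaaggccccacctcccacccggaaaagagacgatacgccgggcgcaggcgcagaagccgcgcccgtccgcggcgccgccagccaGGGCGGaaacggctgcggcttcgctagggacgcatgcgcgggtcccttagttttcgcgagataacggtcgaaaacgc
CASP8: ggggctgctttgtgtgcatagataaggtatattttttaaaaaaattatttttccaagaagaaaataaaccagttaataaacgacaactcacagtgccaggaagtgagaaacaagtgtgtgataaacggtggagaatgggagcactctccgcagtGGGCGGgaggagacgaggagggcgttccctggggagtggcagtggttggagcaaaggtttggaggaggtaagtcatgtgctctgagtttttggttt
BIRC2: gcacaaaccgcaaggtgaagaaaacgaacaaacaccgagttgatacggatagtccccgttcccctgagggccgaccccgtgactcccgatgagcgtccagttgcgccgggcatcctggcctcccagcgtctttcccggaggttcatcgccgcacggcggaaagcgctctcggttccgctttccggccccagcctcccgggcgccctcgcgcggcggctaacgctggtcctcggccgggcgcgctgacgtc
The letters were present 2 times before FADD, 1 time before CASP8 and 0 times before BIRC2. They are common, with 42.6% of 35116 RefSeq windows of this length holding at least 1 and 24.3% at least 2. The GC content was 68.8% for FADD, 45.6% for CASP8 and 67.6% for BIRC2. A match is a stretch of letters and not a measured binding site.

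TRADD, the adaptor of TNF receptor 1, was not called. AFFX probe set 1729_at read 6.94, 6.86 and 6.97 in control and 7.08, 7.26 and 7.24 in treated arrays (log2). Its treated arrays lay above its control arrays, with a log2 change of 0.27 (limma adjusted p = 0.0322) that stayed under the fold limit. The 2 other probe sets had changes of 0.12 and 0.12, and the ABI probe one of 0.17 (limma adjusted p = 0.454), and apart from 1729_at all of these turned negative when the arrays were centred on ribosomal protein genes. The 2 adaptors of the pathway that are members therefore had unlike values, since FADD fell on both platforms and TRADD differed from its control level by at most 1.20-fold on each of its probes.

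Caspase-8, the initiator protease of the pathway, had 3 probe sets on AFFX. Probe set 213373_s_at had 7.44, 7.55 and 7.11 in control and 6.54, 6.56 and 6.32 in treated arrays (log2). These groups did not overlap, and the level was 1.86-fold lower (log2 change -0.90, SE 0.120, limma adjusted p = 2.00e-04). The other probe sets were dim. Of these, 207686_s_at had a change of -0.26 (adjusted p = 0.0569 in limma) and 1553306_at one of 0.03 (adjusted p = 0.880).

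On ABI, caspase-8 probe 197333 read 2.53, 2.26 and 2.70 in control and 0.98, 1.25 and 0.61 in treated arrays (linear signal). The treated arrays all lay below the control arrays, at 2.74-fold lower (log2 change -1.46, SE 0.284, limma adjusted p = 0.0221). The treated mean was under the dim limit, and the fold from the control mean to that limit was 2.44. This call depended on single arrays. It was lost without control replicate 1, 2 or 3 or treated replicate 1, with changes of -1.40 to -1.53 and adjusted p of 0.0586 to 0.0736. Probe 223011 also had non-overlapping groups and a change of -0.83 (adjusted p = 0.0980), and the dim probe 157699 had one of -1.01 (adjusted p = 0.298). All 3 ABI probes thus had values below 0, of which 1 passed the test, and the difference between the platforms for CASP8 was 0.56 (SE 0.326, adjusted p = 0.302).

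CFLAR encodes c-FLIP, which competes with caspase-8 for FADD. With 14 AFFX probe sets it was the member measured most often, and its probe sets were not alike. Only 239629_at was called, with 4.41, 4.40 and 4.08 in control and 3.56, 3.28 and 2.99 in treated arrays (log2), 2.03-fold lower (limma adjusted p = 2.55e-04). All of these levels are below the dim limit. Probe set 209939_x_at, which represents the gene on AFFX in the comparison of platforms, read 8.31, 8.26 and 8.35 in control and 7.84, 7.84 and 7.88 in treated arrays, a tight and non-overlapping difference of -0.46 (SE 0.0782, limma adjusted p = 0.00112) that stayed under the fold limit at 1.37-fold.

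Probe sets 210563_x_at, 210564_x_at and 211316_x_at had like values, with changes of -0.44, -0.30 and -0.35 and limma adjusted p of 0.00318, 0.0274 and 0.00587. In contrast 214618_at and 237367_x_at had changes of 0.50 and 0.28, with adjusted p of 0.0390 and 0.0402. The groups of the former, which was dim, overlapped, and without control replicate 3 or treated replicate 2 it passed the fold limit, the highest change being 0.69. The remaining 7 probe sets had changes of -0.24 to 0.23 and did not pass the test. Many of the CFLAR probe sets carry the suffix _x_at, which marks sets with probes that can also match other transcripts, and the exons that each one reads were not used here.

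The ABI array had 2 CFLAR probes. Probe 229085 read 1.26, 1.26 and 0.83 in control and 0.55, 0.37 and 0.34 in treated arrays (linear signal), at 2.67-fold lower (log2 change -1.42, SE 0.269, limma adjusted p = 0.0205). Its groups were separate, but the treated mean lay under the dim limit, to which the fold from the control mean was only 1.08. The call was lost without control replicate 1 or 2 or treated replicate 2 or 3, with adjusted p of 0.0647 to 0.0751. Probe 170411 had a change of -0.69 (adjusted p = 0.119). With 0.5 added to each signal, 229085 had a change of -0.81.

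XIAP, which binds and inhibits caspases, also differed between its probes. AFFX probe set 228363_at read 8.94, 8.88 and 8.58 in control and 7.78, 7.96 and 7.27 in treated arrays (log2), without overlap and 2.19-fold lower (log2 change -1.13, SE 0.163, limma adjusted p = 3.40e-04). The 4 other probe sets above the dim limit moved much less. Of these, 235222_x_at and 243026_x_at each had a change of -0.28 (limma adjusted p = 0.0304 and 0.0330), and 225859_at and 225858_s_at had -0.12 and 0.00 with overlapping groups. The dim 206536_s_at and 206537_at had changes of -0.14 and 0.02.

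On ABI, XIAP probe 186150 read 66.81, 54.58 and 57.06 in control and 30.78, 35.27 and 33.62 in treated arrays (linear signal). The groups did not overlap, and levels were 1.79-fold lower (log2 change -0.84, SE 0.140, limma adjusted p = 0.0141). Probe 180953 had a change of -1.00 with overlapping groups (adjusted p = 0.248), and the dim 229621 one of 0.39 (adjusted p = 0.672).

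BIRC2 encodes cIAP1, a ubiquitin ligase of RIPK1 at the TNF receptor, and lay above the dim limit on both platforms. Its AFFX probe set read 9.85, 9.61 and 9.68 in control and 9.30, 9.50 and 9.20 in treated arrays (log2), a change of -0.38 (SE 0.103, limma adjusted p = 0.0146). Its ABI probe read 106.36, 97.19 and 106.61 in control and 76.96, 82.63 and 82.17 in treated arrays (linear signal), a change of -0.36 (SE 0.118, limma adjusted p = 0.0874). Neither was called, although on both platforms all treated arrays lay below all control arrays and the sizes, 1.30-fold and 1.28-fold, differed by only -0.02 on the log2 scale (SE 0.144).

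**Figure D3:**
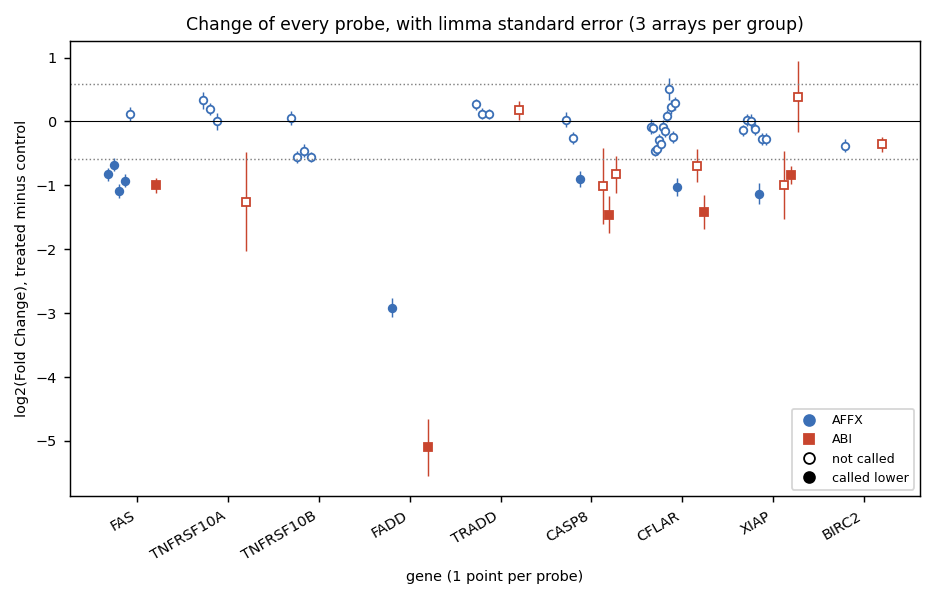
Log2(Fold Change), treated minus control, of every member probe, with AFFX as circles, ABI as squares, the limma standard error as bars and filled symbols for probes called lower; dotted lines mark 1.5-fold. FADD stands apart from the other genes on both platforms, at -2.91 and -5.10, and the probes of CFLAR and XIAP spread from below -1 to above 0.

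Each gene was then represented on a platform by the probe that the rule of the study's methods picks, from an ordinary test of each probe that assumes equal variances, so that it need not be the probe with the lowest p in limma (for CFLAR and TNFRSF10A on AFFX it was not), and this choice leans towards larger changes where a gene has several probes. By this choice FADD, FAS, CASP8 and XIAP fell on both platforms, 4 of the 8 shared member genes, where 10.5% of the 16186 shared genes were lower on both. CFLAR was lower on ABI alone. None of the 8 was higher on both, against 0.42% of the shared genes. The size of the change differed between the platforms for 2 of the 8, FADD and CFLAR, by the condition by platform interaction in limma, which 15.1% of the shared genes passed. For FADD the change was smaller on AFFX by 2.18 on the log2 scale (SE 0.503, adjusted p = 0.0166), and for CFLAR by 0.96 (SE 0.280, adjusted p = 0.0443). The CFLAR difference compared 209939_x_at with 229085, whose treated level was under the dim limit, and it was lost when each of 10 of the 12 arrays was left out in turn, with adjusted p up to 0.0988. With the probe of the highest mean signal on each platform it was 0.24 (adjusted p = 0.642). For FADD it stayed between 1.84 and 2.68 without any 1 array.

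Genes with a pair of changes most like that of FADD were RPP38 (-3.05 on AFFX and -5.00 on ABI), RGS1 (-3.38 and -5.38) and CMTR2 (-3.41 and -5.52), at distances of 0.170, 0.543 and 0.655 in the plane of the 2 log2 changes over 16186 genes. Those nearest to CASP8 were DFFB, a nuclease activated in apoptosis (-0.91 and -1.46), REEP4 (-0.88 and -1.44) and LIN7B (-0.89 and -1.48), all within 0.03. CFLAR, CASP10 and CASP8 follow each other on chromosome 2 in the RefSeq annotation of GRCh38.p14. CASP10, which lies between the others and encodes the closest relative of caspase-8, was not called. Its changes were 0.17 on AFFX (limma adjusted p = 0.168) and -0.10 on ABI (limma adjusted p = 0.913). The ABI probe was dim, with means of -1.74 in control and -1.84 in treated arrays (log2). The AFFX probe set used had means of 6.64 and 6.81, little above the dim limit of 6.42, and the other AFFX probe sets of CASP10 were dim. With signal this low, a fall of CASP10 could have been missed.

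Of 49 other genes of the pathway, listed with results of these data already known, 44 had a probe on AFFX, 44 on ABI and 43 on both. On AFFX 7 of 44 were lower, 1 was higher and 36 were not called, where 14.2% of all 19777 genes were lower and 2.49% higher. On ABI 8 of 44 were lower, 3 were higher and 33 were not called, where 14.8% of all 17192 genes were lower and 6.31% higher. Those shares lie near the background, and the median changes of the list were 0.11 on AFFX and -0.02 on ABI. The genes lower on both platforms were TNFRSF1A, CASP8AP2, DEDD, DEDD2, DAXX and TAB2, and TNFRSF10C was higher on both. These were 6 and 1 of the 43 genes, where 10.5% of the 16186 shared genes were lower on both and 0.42% higher. No gene was called in opposite directions.

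Of the 9 adaptors and death domain or death effector domain partners listed, 8 were measured on each platform, and CASP8AP2, DEDD, DEDD2 and DAXX fell on both, with no test of this role against others. Over all shared genes, 10.5% were lower on both platforms. CASP8AP2, a large protein found with caspase-8 and FADD and also with histone gene transcription, went from 8.29 to 4.88 on AFFX, 10.6-fold lower (limma adjusted p = 9.77e-09), and was 3.18-fold lower on ABI (adjusted p = 0.00389). The AFFX treated mean was under the dim limit, and the fold from the control mean to that limit was 3.65. DEDD and DEDD2, which carry a death effector domain like that of FADD, had changes of -0.94 and -0.73 on AFFX and -1.51 and -1.15 on ABI. The ABI treated mean of DEDD2 was under the dim limit, and the fold from its control mean to that limit was 2.03. DAXX, a FAS binding protein that is also a histone chaperone, had changes of -0.62 on AFFX and -0.98 on ABI. The other 4, CRADD, PEA15, FAF1 and FAIM, were not called on either platform.

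Among the receptors, TNFRSF1A, the TNF receptor that works through TRADD, went from 9.23 to 6.85 on AFFX, 5.21-fold lower (limma adjusted p = 4.07e-08). On ABI it went from 3.20 to -1.20, 21.0-fold lower (limma adjusted p = 0.00333), and its treated level there was below the dim limit, to which the fold from the control mean was 9.0. As with FADD, the change was larger on ABI, by 2.01 (SE 0.504, adjusted p of the interaction 0.0243). This was not so for every large fall. For CASP8AP2 the fall was larger on AFFX, with a difference (AFFX minus ABI) of -1.74 (SE 0.226, adjusted p of the interaction 8.08e-04). For DEDD it was larger on ABI, with a difference of 0.57 (SE 0.124, adjusted p of the interaction 0.0128). TNFRSF10C, a TRAIL receptor without a death domain, had changes of 0.61 on AFFX (1.53-fold, limma adjusted p = 4.32e-04) and 1.15 on ABI (2.22-fold, limma adjusted p = 0.00616), and its AFFX control mean of 5.82 was under the dim limit. That AFFX call was lost with arrays centred on ribosomal protein genes, with a fold limit of 2, with the mean of all probes or the probe of the highest mean, and without control replicate 3. TNFRSF25 was higher on ABI alone, at 1.95-fold. None of the 5 ligands was called on AFFX. FASLG was called higher on ABI at levels of -2.80 and -1.55, far below the dim limit. TNFSF10, which encodes TRAIL and was dim on every probe, had changes of 0.35 on AFFX (limma adjusted p = 0.0429) and -0.31 on ABI (limma adjusted p = 0.679).

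Of the complex regulators, TAB2, an adaptor of the kinase TAK1, fell on both platforms by 1.74-fold and 1.79-fold, and OTULIN, which removes linear ubiquitin chains, was lower on ABI, at 2.13-fold. Among the caspases and BID, CASP2 alone was called, at 1.51-fold lower on AFFX. BIRC3 and TRAF2 were not assigned a probe by the tables used here and were not analysed. BIRC6 was lower on ABI, at 1.80-fold, and on 1 of its 2 AFFX probe sets, though not the one representing it, while BIRC5, BIRC7, XAF1, DIABLO and HTRA2 were not called.

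**Figure D4:**
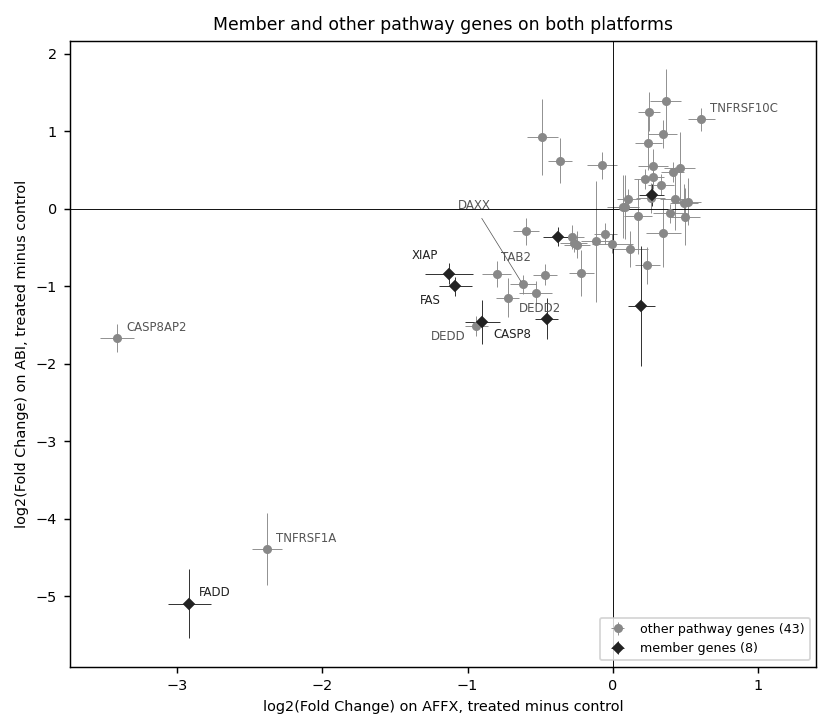
Log2(Fold Change) on AFFX against that on ABI for the 8 member genes (diamonds) and 43 other pathway genes (circles) measured on both platforms, with limma standard errors; names mark genes called in the same direction on both. FADD, TNFRSF1A and CASP8AP2 lie apart at the lower left, and most other genes lie near 0 on both axes.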

How the data were processed

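AFFX arrays are Affymetrix whole-genome arrays, and ABI arrays are Applied Biosystems whole-genome arrays read by chemiluminescence. On AFFX the authors deposited log2 values per probe set, made by RMA with quantile normalization (version not given in the sources used here). On ABI the authors deposited linear signal intensity per probe after global median normalization, which was turned to log2 here without a pseudocount. No detection flags were used. Median signals ranged from 5.37 to 5.47 (log2) over AFFX arrays and from 1.06 to 1.19 (linear) over ABI arrays, and precision is limited by how many arrays there are.

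The 62 AFFX control probe sets were left out. Gene names came from the platform annotation: 41091 AFFX probe sets and 21089 ABI probes had 1 gene, 1801 and 563 several, and 11721 and 11444 none. Probes without a single gene entered the adjustment but named no gene. No symbol needed updating. RefSeq sequences are of GRCh38.p14.

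Within a platform the treated arrays were set against the control arrays by an unpaired, 2-sided test in limma 3.58.1 (R 4.3.3), with Benjamini-Hochberg adjustment over all probes that are not controls. The study's methods used SAM on filtered genes. limma over all probes was used here so that no member was dropped. Calls required adjusted p below 0.05 with at least 1.5-fold. Platform differences were tested as an interaction in limma over 16186 shared genes. Every member probe was named. Of 49 other pathway genes, those called in the same or in opposite directions on both platforms were named, with CASP10, BIRC3, TNFSF10 and TNFRSF1A, and other called genes were named after their values were seen. The marker lists, the pathway list and the members were chosen with earlier results of these data known. The marker lists hold leukocyte, fibroblast or endothelial, and carcinoma genes. The steps were tested on simulated data. Alternatives were the replicate number as a block, 2 array scalings, a filter on dim probes, another variance model, the methods' t-test, other fold limits, other choices of probe, 0.5 added to ABI signals, and each array left out in turn.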

Additional observations from a re-analysis of the deposited data

Results flagged for a closer look

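The FADD change differed between the platforms by 2.18 on the log2 scale (AFFX minus ABI, SE 0.503, limma adjusted p = 0.0166), with falls on both and the larger one on ABI. The treated mean was under the dim limit on both platforms. For CFLAR the same difference was 0.96 (SE 0.280, limma adjusted p = 0.0443), between a probe set at -0.46 on AFFX and a probe at -1.42 on ABI. Both were picked out because the test of the difference between platforms passed. What sets either difference was not tested.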

How the results depend on the processing

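The AFFX calls of FADD, XIAP 228363_at and FAS 215719_x_at and the ABI call of FADD held under every alternative run. With arrays centred on ribosomal protein genes, lower calls rose from 8 to 15 AFFX member probe sets, from 5 to 8 ABI member probes, from 7 to 12 AFFX pathway genes and from 8 to 19 ABI pathway genes, where 14.0% of all AFFX probe sets, 22.7% of all ABI probes, 20.6% of AFFX genes and 31.4% of ABI genes were then lower. Both counts of higher pathway genes went to 0, and 4 member genes differed between platforms in place of 2. A fold limit of 2 left 4 AFFX and 3 ABI member probes lower, 2 AFFX and 5 ABI pathway genes lower and 0 AFFX pathway genes higher. Without a fold limit, 18 AFFX member probe sets were lower and 3 higher, and 14 AFFX pathway genes were lower and 17 higher. Quantile normalization gave 4 AFFX pathway genes lower and 4 higher, and 7 ABI pathway genes higher. FAS 204781_s_at lost its call there, at -0.50. The mean of all probes gave 4 AFFX pathway genes lower and 0 higher, and the probe with the highest mean 0 higher. The methods' t-test and the ABI signal with 0.5 added each left 1 member gene that differed between platforms, FADD. Shares over all probes or genes are given here for ribosomal centring alone. The other counts in this section therefore cannot be set against the whole array.

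Replicate numbers did not pair the samples: deviations of arrays with the same number correlated at 0.00403 to 0.327 on AFFX and -0.00667 to 0.0717 on ABI, and 1 of 3 AFFX and 2 of 3 ABI control arrays correlated best with their own number. With the replicate block, 8 AFFX and 3 ABI member probes were lower, 5 ABI pathway genes were lower and 1 higher. CASP8 197333 (adjusted p = 0.0819, limma) and XIAP 186150 (adjusted p = 0.0753, limma) were the ABI member calls lost.

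With each array left out in turn, lower member calls ranged from 8 to 9 on AFFX and 3 to 5 on ABI and higher ones from 0 to 1 and 0 to 0, lower pathway calls from 6 to 8 and 5 to 8, higher ones from 0 to 1 and 1 to 3, and member genes that differed between platforms from 1 to 2. The ABI minimum of 3 came without control replicate 1 or 2.

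Changes of uncalled probes turned sign as follows. Under quantile normalization they were CASP8 1553306_at at -0.067, TNFRSF10B 1556645_s_at at -0.023, XIAP 206537_at at -0.069 and TNFRSF10A 241371_at at -0.057. With ribosomal centring they were CASP8 1553306_at (-0.24), TNFRSF10B 1556645_s_at (-0.21), TRADD 205641_s_at (-0.14), 213443_at (-0.15) and the ABI probe (-0.41), XIAP 206537_at (-0.24), 225858_s_at (-0.27) and ABI 229621 (-0.20), CFLAR 214486_x_at (-0.18) and 217654_at (-0.041), TNFRSF10A 231775_at (-0.070) and 241371_at (-0.27), and FAS 233820_at (-0.14). Without single arrays, changes spanned -0.12 to 0.10 for CASP8 1553306_at, -0.049 to 0.11 for TNFRSF10B 1556645_s_at, -0.17 to 0.14 for TNFRSF10A 241371_at, -0.058 to 0.075 for XIAP 206537_at, -0.11 to 0.088 for 225858_s_at, -0.10 to 0.79 for ABI 229621, -0.19 to 0.068 for CFLAR 208485_x_at and -0.16 to 0.0345 for 211317_s_at. The cause was not tested for any of these.

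Signal over background limits the dim probes and the folds whose treated means were under the dim limit. Among the member calls these folds are FADD on both platforms, FAS 215719_x_at and 216252_x_at on AFFX and CASP8 197333 and CFLAR 229085 on ABI. Among the other pathway genes called lower they are CASP8AP2 on AFFX and DEDD2 and TNFRSF1A on ABI. The arrays are aliquots of 1 pool per condition at 1 dose and 1 time, so the spread between cultures was not measured.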
